A study of Mus musculus with 33 samples.

Results

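Trimethylation of histone H3 at lysine 9 (H3K9me3) was mapped in mouse embryonic stem cells (mESC) that were wild type (WT) or lacked Uhrf1 (KO), and the 2 maps were compared. The samples were chosen by antibody, stage and genotype, which gave 2 of the 33 samples in the series, 1 library per genotype, with 11285 WT domains and 3118 KO domains. A domain is a run of 1800 bp bins that the authors' caller found enriched over input DNA, and it is given here in mm9 coordinates. The series measured histone marks, pluripotency factors and Uhrf1 by ChIP-seq, in which antibody-bound chromatin is sequenced. Both samples were undifferentiated mESC. The study's methods list E14 cells, a male mESC line, and Uhrf1 KO cells, and do not give the parent line of the KO cells. Both were grown in serum with leukemia inhibitory factor on gelatin or on plates coated with mouse embryonic fibroblasts (MEF). The same anti-H3K9me3 antibody was used for both. The only labelled difference was the genotype. WT and KO cells had been obtained from another group, as existing lines, and with 1 KO line an effect of Uhrf1 loss and a property of that line cannot be told apart.

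H3K9me3 marks constitutive heterochromatin, silenced retrotransposons and many clustered gene families. It is written by Suv39h enzymes at satellite repeats and by Setdb1 at retrotransposons, where KRAB zinc finger proteins and Trim28 bring the enzyme to DNA, and it is read by the HP1 proteins Cbx1, Cbx3 and Cbx5. Uhrf1 recognises hemimethylated DNA behind the replication fork as well as H3K9me3 itself, and it brings the maintenance methyltransferase Dnmt1 to newly made DNA.

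With 1 library per genotype no replicate spread could be measured, and no p-value is given. Intervals are Wilson or Newcombe 95% intervals over domains or genes, and they cover counting error only. Total reads were not used, and the study's sequencing summary lists more mapped reads for the WT than for the KO H3K9me3 library. The median domain had a mean of 15.0 reads per bin in WT and 10.9 in KO, and the study's methods scale ChIP-seq read counts by mapped reads without saying whether this holds for this column of the domain lists. H3K4me3, the mark of active promoters, overlapped the start of 9 of 10 stem cell marker genes in both genotypes, all except Esrrb, and of the same 6 of 12 fibroblast marker genes in both. The Uhrf1 gene carried no H3K9me3 domain and had H3K4me3 at its start in both genotypes, so these lists do not check the knockout.

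Chromosomes 8, 11 and X stood apart from the other 17 autosomes. H3K9me3 domains covered 85.5% of chromosome 8 in WT and 32.3% in KO. They covered 78.2% of chromosome 11 in WT and 98.8% in KO, where 18 domains were listed against 452 in WT, the longest of 26415 kb. They covered 2.36% of the X chromosome in WT and 0.307% in KO. On those 17 coverage ran from 17.6% to 47.8% in WT and from 15.0% to 59.7% in KO. The WT list of H3K27me3, the Polycomb mark, singled out the same chromosomes. It covered 67.7% of chromosome 8, 57.6% of chromosome 11 and 7.00% of the X chromosome, against 23.2% to 45.9% of each of the 17. WT H3K4me3 covered 13.3% of chromosome 8, against 5.26% to 11.4%. Chromosome 8 stood apart in these WT lists only. In KO it lay inside the range of the 17 for H3K9me3, H3K27me3 (2.17%, against 0.957% to 7.05%) and H3K4me3 (7.32%, against 4.98% to 10.6%). The length-weighted mean count on chromosome 11 in KO was 13.0 reads per bin, above the 10.6 to 11.3 of the 17. Chromosome copy number was not measured, and its part in these values was not tested. Values are given for the 17 autosomes unless all chromosomes are named.

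**Figure D1:**
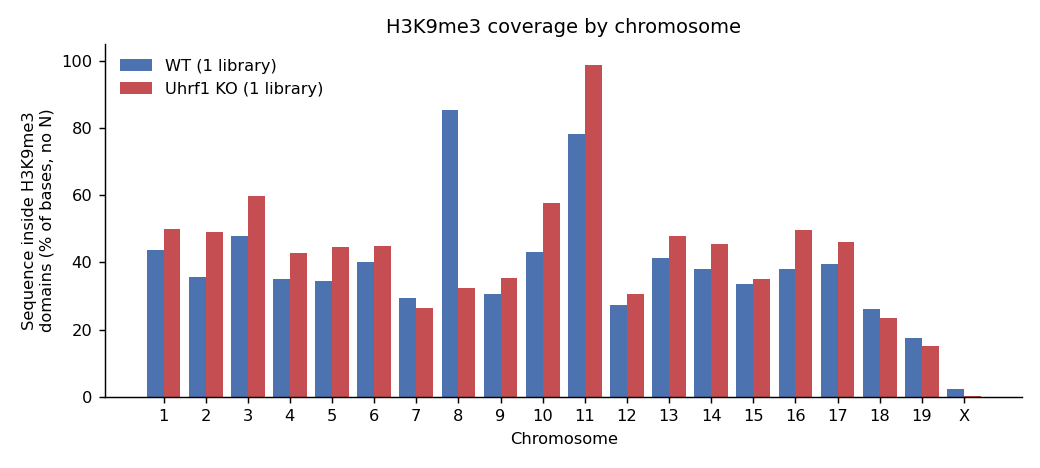
Share of the bases of each chromosome, other than N, that lay inside H3K9me3 domains in WT (blue) and Uhrf1 KO (red) mESC, 1 library each. Chromosome 8 stood at 85.5% in WT and 32.3% in KO, chromosome 11 reached 98.8% in KO, and the X chromosome was below 3% in both.

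KO domains were fewer and longer than WT domains. The 17 autosomes held 10309 WT domains covering 784.3 Mb and 2887 KO domains covering 927.7 Mb. The log2 ratio of KO to WT was -1.84 for the number and 0.24 for the covered length (0.14 over all chromosomes). The median length was 37.8 kb in WT and 142.2 kb in KO, and the length at which longer domains held 50% of the covered sequence was 156.6 kb in WT and 756.0 kb in KO. Domains of 1 Mb or more numbered 24 in WT, with 3.99% of the covered length, and 192 in KO, with 41.0% of it. Short domains went the other way: 30.6% of WT domains and 6.37% of KO domains were under 20 kb.

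**Figure D2:**
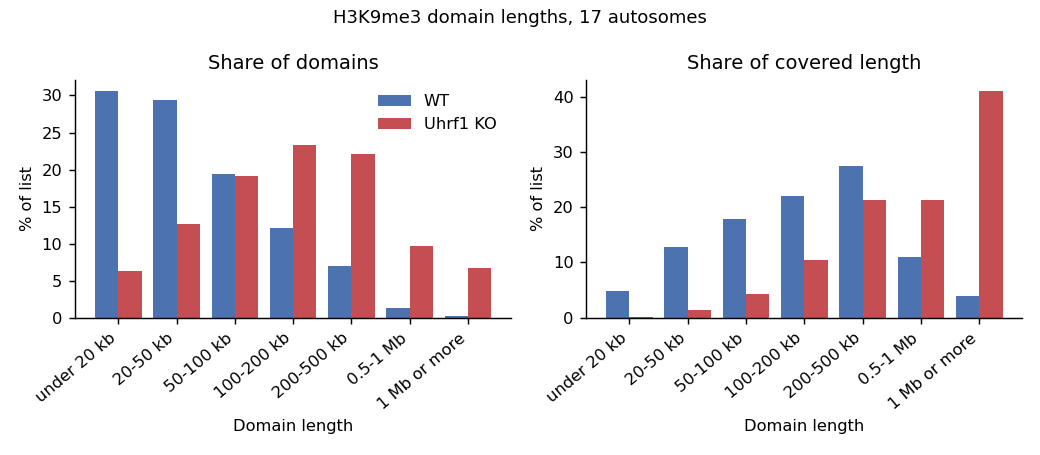
H3K9me3 domains of the 17 autosomes by length, as a share of the domains of each list (left) and of its covered length (right), WT in blue and Uhrf1 KO in red. Domains of 1 Mb or more held 3.99% of the WT and 41.0% of the KO covered length.

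The direction was the same on each of the 17 autosomes for number and for median length, with 2.80 to 4.10 WT domains for each KO domain. Covered length was less uniform. It was higher in KO on 14 of the 17 and lower on chromosomes 7, 18 and 19. The largest difference in favour of KO was on chromosome 10, from 43.2% to 57.8%, and the largest in favour of WT on chromosome 7, from 29.5% to 26.4%. The order of the chromosomes by coverage was much alike in the 2 libraries (Pearson r = 0.95, Spearman rho = 0.92 across 17 autosomes, which share the library and the caller within each genotype). Chromosome 3 was the most covered of the 17 in both and chromosome 19 the least.

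Neighbouring WT domains often lay inside a single KO domain. Of the KO domains on the 17 autosomes, 42.1% (40.3 to 43.9%) overlapped 2 or more WT domains, 44.7% exactly 1 and 13.2% none. When the WT list was shortened by score to the number of KO domains over all chromosomes, the share of KO domains with 2 or more WT domains was 15.5% in place of 40.2%, and the share with any was 48.7% in place of 87.6%. The reverse was rare in the lists as deposited, since 0.747% of WT domains overlapped 2 or more KO domains. KO domains that overlapped several WT domains held a median of 3 and made up 81.2% of the KO covered length, at a median of 354.6 kb each. Those with exactly 1 WT domain had a median of 79.2 kb and those with none 68.4 kb. Over all chromosomes, joining was more frequent for H3K9me3 than for the other marks of the same cells: 40.2% of KO H3K9me3 domains, 12.3% of KO H3K27me3 domains (difference 27.9 points, 24.7 to 30.7) and 6.13% of KO H3K4me3 domains (difference 34.1 points, 32.3 to 35.8) held 2 or more WT domains of the same mark. The KO H3K27me3 list held 722 domains, and the lists differ in length and bin size, whose part in the difference was not tested.

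The sequence taken up between WT neighbours was mostly short. On the 17 autosomes 3738 gaps between adjacent WT domains lay within 1 KO domain, with a median of 37.8 kb and 198.9 Mb in all, and the 6554 other gaps had a median of 95.4 kb. The share of gaps lying in 1 KO domain was 67.4% (64.5 to 70.3%) for gaps of up to 20 kb, 53.5% for 20 to 50 kb, 37.5% for 50 to 100 kb, 19.9% for 100 to 200 kb and 4.08% (3.26 to 5.10%) beyond 200 kb. The lists also differed in how close domains could lie. No pair of neighbouring KO domains was closer than 19.8 kb, whereas the closest WT neighbours were 7.2 kb apart and 4134 of the 10292 WT gaps were of 50 kb or less, against 204 of 2870 in KO. When each list was joined across gaps of up to 50 kb, 25.3% of all KO domains still held 2 or more WT domains, but the covered length over all chromosomes was then lower in KO, at a log2 ratio of -0.037.

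**Figure D3:**
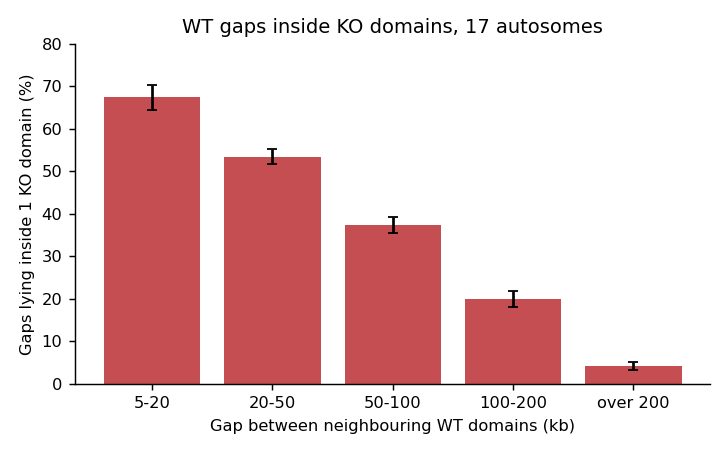
Share of gaps between adjacent WT H3K9me3 domains that lay inside 1 KO domain, by gap length in kb, on the 17 autosomes, with Wilson 95% intervals as bars. The share was 67.4% for the shortest gaps and 4.08% for those over 200 kb.

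The KO domain with the most WT domains on the 17 autosomes was on chromosome 14 (chr14:87778801-99855000, 12076.2 kb). It held 60 WT domains, which covered 76.4% of it, in a gene-poor stretch with 13 protein-coding genes, among them Pcdh9, a neuronal adhesion protein, Klhl1, an actin-binding protein, Dach1, a developmental transcription factor, and Klf5, a Krüppel-like pluripotency factor. The next held 34 WT domains on chromosome 1 (chr1:138798001-145886400), with 25 genes including the complement factor H relative Cfhr2, and the third 30 on chromosome 5 (chr5:11930401-14902200), around the axon guidance genes Sema3a, Sema3d and Sema3e and the synaptic gene Pclo. On chromosome 11, a single KO domain (chr11:88459201-114874200) held 129 WT domains and overlapped 471 protein-coding genes, and another (chr11:71112601-82938600) held 55 WT domains and overlapped 215.

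Most WT sequence was retained in base pairs, although many small WT domains were not. Of the 17 autosomes, 587.6 Mb lay in domains of both lists, 196.6 Mb in WT only and 340.0 Mb in KO only, so the shared sequence was 52.3% of the union. KO domains held 74.9% of the WT covered length while covering 43.1% of the sequence, and WT domains held 63.3% of the KO covered length while covering 36.5%. The share of WT domains with any KO base was 39.8% in the shortest of 5 groups by length (up to 14400 bp) and 92.0% in the longest (104400 bp or more). By mean count it was 62.8% in the lowest group and 52.5% in the highest, whereas the share of WT base pairs inside KO domains ran the other way, 64.5% in the lowest group by mean count and 79.9% in the highest. WT-only sequence came mainly from whole domains, with 69.5% of it in domains that had no KO base. KO-only sequence was mostly attached to WT domains: 58.5% lay between WT neighbours, 31.9% at the ends of KO domains and 9.60% in KO domains with no WT base.

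The 3 longest WT domains with no KO base were all on chromosome 8. The first (chr8:117381601-119129400) covered Wwox, an oxidoreductase gene at a fragile site, Cdyl2, a chromodomain gene, and the transcription factor Maf. The second (chr8:120101401-121786200) covered Cdh13, an atypical cadherin, and Plcg2, a phospholipase. The third (chr8:8701201-9973800) covered Fam155a and the DNA ligase Lig4. On the 17 autosomes the longest was a 325.8 kb domain on chromosome 6 (chr6:6562801-6888600) over the paired homeobox genes Dlx5 and Dlx6. It was followed by a 309.6 kb domain on chromosome 7 (chr7:11095201-11404800) over Nlrp4b and 4 Vmn1r vomeronasal receptor genes, and a 295.2 kb domain on chromosome 12 (chr12:60593401-60888600) with no protein-coding gene.

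The longest KO domains with no WT base each overlapped at least 2 protein-coding genes. A 421.2 kb domain on chromosome 4 (chr4:131682601-132103800) overlapped 12 protein-coding genes, including Rcc1, the exchange factor of the Ran GTPase, Taf12, a subunit of the general transcription factor TFIID, and Ythdf2, a reader of methylated RNA. A 297.0 kb domain on chromosome 6 (chr6:29977201-30274200) covered Nrf1, a regulator of mitochondrial genes, and the ubiquitin-conjugating enzyme Ube2h. A 289.8 kb domain on chromosome 4 (chr4:133252201-133542000) covered Arid1a, a subunit of the BAF remodelling complex. Their mean counts, 10.3, 9.91 and 10.1 reads per bin, were at or below the first quartile of the KO list on the 17 autosomes (10.4).

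The 4 classes of sequence on the 17 autosomes (shared, WT only, KO only, neither) differed in what else they carried. H3K4me3 of WT cells covered 15.1% of KO-only sequence, against 8.96% of sequence in neither list, 3.38% of shared and 2.31% of WT-only sequence, and KO-only was above neither on 17 of 17 autosomes. KO-only sequence had 10.6 protein-coding starts per Mb, close to the 10.9 of sequence in neither list, whereas shared and WT-only sequence had 5.10 and 4.58. H3K27me3 of WT cells covered 55.2% of shared, 58.4% of WT-only, 26.7% of KO-only sequence and 25.9% of the remainder. Uhrf1 windows of WT cells, which are 10 kb long, made up 7.42% of shared, 6.26% of WT-only, 4.52% of neither and 1.44% of KO-only sequence, lowest in KO-only on 17 of 17 autosomes. GC content was 38.8% in shared, 40.5% in WT-only, 41.0% in KO-only and 44.1% in the remaining sequence. KO-only sequence thus had less GC than the remainder on 17 of 17 autosomes but more H3K4me3. H3K4me3 of KO cells showed the same order, with 15.4% of KO-only sequence and 7.89% of neither.

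**Figure D4:**
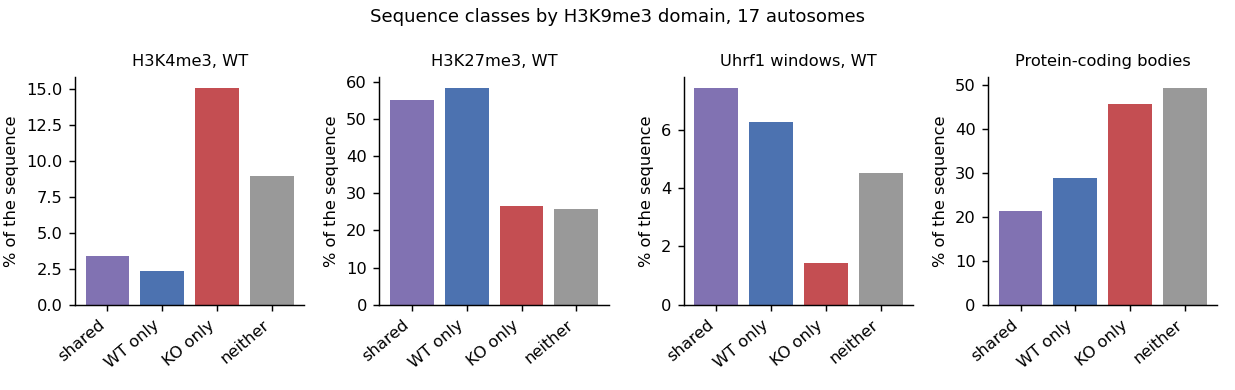
Share of each class of sequence on the 17 autosomes covered by H3K4me3 domains, H3K27me3 domains and Uhrf1 windows of WT mESC and by protein-coding gene bodies, with a separate vertical axis in each panel. KO-only sequence had the highest H3K4me3 share (15.1%) and the lowest Uhrf1 share (1.44%).

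Genes were counted as covered when at least 50% of the body lay in a domain. Of 22367 protein-coding genes, 24.4% were covered in WT and 37.5% in KO: 4273 genes in both, 1177 (5.26%) in WT only and 4118 (18.4%) in KO only. On the 17 autosomes, with 18683 genes, the shares were 21.1% in WT and 34.7% in KO, with 815 genes (4.36%) covered in WT only and 3363 (18.0%) in KO only. The genes of the 2 classes were unlike. H3K4me3 of WT cells lay within 2 kb of the start of 79.6% (78.2 to 81.0%) of KO-only genes, 30.8% (27.7 to 34.1%) of WT-only genes and 68.2% of genes covered in neither. H3K27me3 of WT cells lay at the start of 21.1% of KO-only, 61.2% of WT-only and 25.5% of genes in neither, against 31.8% of all genes. A Uhrf1 window overlapped 4.94% of KO-only and 15.0% of WT-only gene bodies, a difference of -10.0 points (-12.7 to -7.62). The share was 9.57% of genes in neither and 9.92% of all genes. The median KO-only gene was 22.9 kb long and the median WT-only gene 6.91 kb. Genes covered in both were much like WT-only genes, so these traits are not particular to WT-only genes. Of genes covered in both, 30.4% had H3K4me3 and 58.5% H3K27me3 at the start, and 15.3% overlapped a Uhrf1 window. Their median length was 5.86 kb.

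The 250 bases before the start differed in the same way in their content of CG, the dinucleotide that carries DNA methylation in mammals. On the 17 autosomes the median number of CG per 250 bases was 12 for KO-only genes, 10 for genes in neither list, 3 for WT-only genes and 2 for genes covered in both. At least 10 CG were found at 58.3% of KO-only, 52.4% of neither, 23.7% of WT-only and 19.6% of both, against 46.7% of all 18683 starts. A start is the outermost annotated one, and it need not be the one used in these cells. The bases before 3 starts of genes described here are shown, read from the mm9 assembly on the strand of the gene, with each CG in capitals. Pou5f1 (chr17:35642732-35642981, plus strand) and Ndufv2 (chr17:66450900-66451149, minus strand) were covered in KO only, and Sycp1 (chr3:102740024-102740273, minus strand) in both.
Pou5f1: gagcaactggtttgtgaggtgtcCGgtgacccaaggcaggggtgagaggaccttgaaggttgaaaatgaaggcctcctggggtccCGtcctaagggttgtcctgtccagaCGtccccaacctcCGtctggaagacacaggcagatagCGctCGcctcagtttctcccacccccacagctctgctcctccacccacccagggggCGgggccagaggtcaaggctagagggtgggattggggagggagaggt
Ndufv2: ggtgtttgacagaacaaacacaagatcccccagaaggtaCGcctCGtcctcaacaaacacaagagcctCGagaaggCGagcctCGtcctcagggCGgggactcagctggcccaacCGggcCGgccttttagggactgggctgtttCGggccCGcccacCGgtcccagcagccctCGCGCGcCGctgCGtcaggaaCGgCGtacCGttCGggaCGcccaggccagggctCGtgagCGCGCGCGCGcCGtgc
Sycp1: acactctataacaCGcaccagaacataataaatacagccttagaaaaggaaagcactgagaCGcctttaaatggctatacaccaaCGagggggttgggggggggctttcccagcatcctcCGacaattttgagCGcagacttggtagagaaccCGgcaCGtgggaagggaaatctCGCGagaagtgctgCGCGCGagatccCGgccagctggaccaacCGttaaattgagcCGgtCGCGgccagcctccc
They hold 7, 28 and 17 CG in that order, so Pou5f1 had fewer than the median of the KO-only genes and Sycp1 more than that of the genes covered in both.

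Of 31 gene families or lists on the 17 autosomes, 15 had more covered members in KO, 12 fewer and 4 the same number, to be read against 21.1% of all genes in WT and 34.7% in KO. Several families in tandem arrays were covered in both lists at shares above those of all genes. Of 1020 olfactory receptor genes, 853 were covered in WT and 843 in KO. The clustered protocadherins, cell surface proteins of neurons, were covered at 24 of 24 genes in both, and the vomeronasal Vmn2r receptors at 87 of 118 in both. Vmn1r receptors went from 142 to 126 of 203, with 23 covered in WT only, among them Vmn1r69, Vmn1r71 and Vmn1r90 on chromosome 7. The pregnancy-specific glycoprotein and Ceacam genes, also on chromosome 7, went from 15 to 4 of 28, including Psg20, Psg21 and Psg23, which were covered over 100% of the body in WT and 0% in KO. Serpin genes went from 27 to 18 of 57, among them the antitrypsin genes Serpina1a, Serpina1b and Serpina1d.

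Hox genes, which pattern the body axis and are Polycomb targets in stem cells, differed by cluster. Of 30 Hox genes outside chromosome 11, 27 were covered in WT and 11 in KO, so the KO share of 36.7% was close to that of all genes. All 19 WT-only members were in the Hoxa and Hoxc clusters, where 1 WT domain of 277.2 kb (chr6:52072201-52349400) and 1 of 187.2 kb (chr15:102682801-102870000) spanned the genes. Hoxd was covered in both lists at 6 of 9 genes, and Hoxd3, Hoxd4 and Hoxd8 in KO only. All 10 Hoxb genes, on chromosome 11, were covered in both. Each of the 40 Hox entries had WT H3K27me3 at its start. Homeobox genes outside the Hox clusters, a list added after the values were seen, went from 24 (30.4%) to 12 of 79 (15.2%). En2, Pax4 and Dlx6 were among those covered fully in WT and not at all in KO. Pax6, the eye and forebrain regulator, was the other way round.

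Families of broadly expressed genes had more covered members in KO than in WT, as had all genes. Ribosomal protein genes went from 2 to 30 of 66, mitochondrial complex I genes from 0 to 14 of 39 and proteasome genes from 5 to 11 of 32. The KO shares of 45.5%, 35.9% and 34.4% lay above or close to the 34.7% of all genes, whereas the WT shares of 3.03%, 0% and 15.6% lay below the 21.1% of all genes. The KO intervals of ribosomal protein genes (34.0 to 57.4%) and complex I genes (22.7 to 51.6%) held the share of all genes. Their WT intervals (0.835 to 10.4% and 0 to 8.97%) lay below it. No interval was computed for proteasome genes. Rpl24, Rps15a, Rpl5 and Rpl3 had no WT base and 100% of the body in a KO domain, as had Ndufv2, Ndufb5, Ndufa7 and Ndufb2 of complex I and Psma6, Psma5, Psma3 and Psmc6 of the proteasome. All 12 had WT H3K4me3 at the start. Outside these families, Zfp zinc finger genes, many of them KRAB repressors of retrotransposons, went from 96 (31.1%) to 172 of 309 (55.7%), above the shares of all genes. Forkhead genes, also added later, went from 2 (5.88%) to 6 of 34 (17.6%), below the shares of all genes in both lists.

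**Figure D5:**
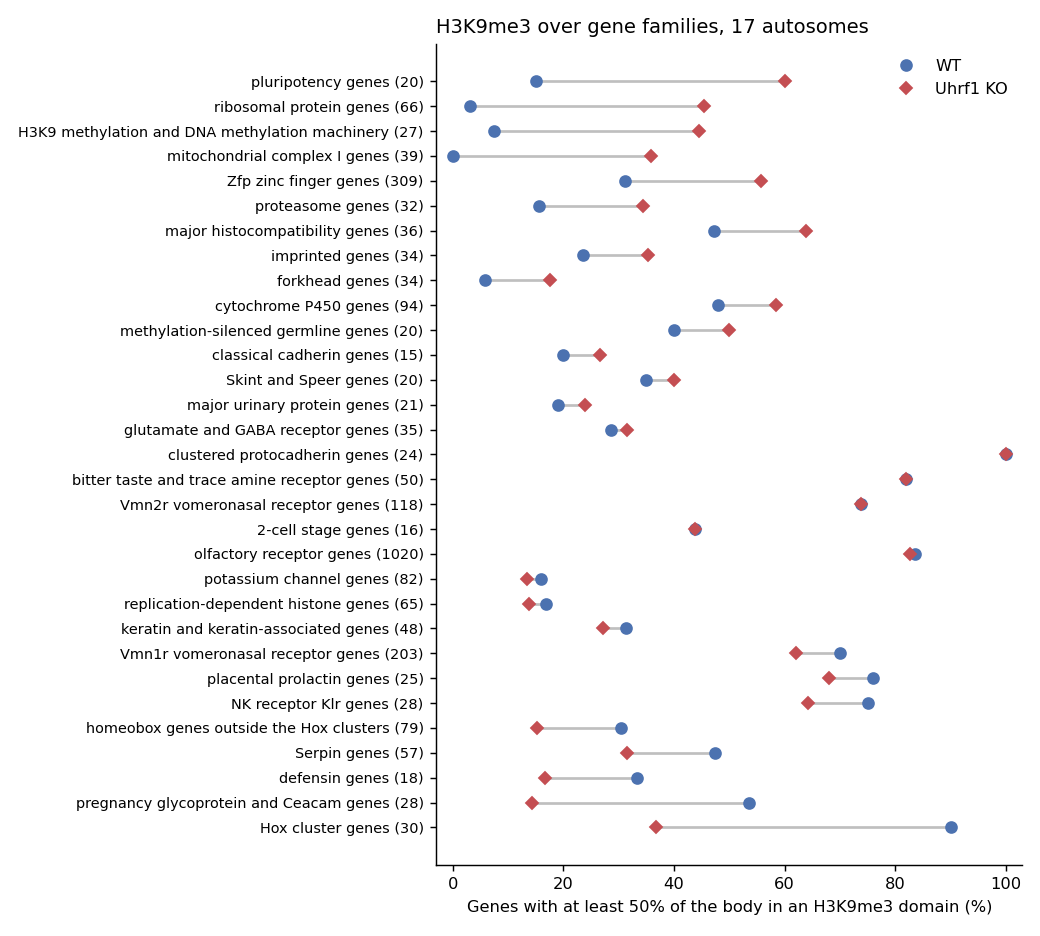
Share of the members of each gene family on the 17 autosomes with at least 50% of the body in an H3K9me3 domain, WT as circles and Uhrf1 KO as diamonds, with the number of members in parentheses, for families with 15 or more. Pluripotency and ribosomal protein genes stand at the top, with more members covered in KO, and Hox genes at the bottom, with 27 of 30 covered in WT and 11 in KO.

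Pluripotency genes were covered at 3 of 20 in WT (15.0%, interval 5.24 to 36.0%, against 21.1% of all genes). In KO they were covered at 12 of 20 (60.0%, interval 38.7 to 78.1%, against 34.7%). Over all chromosomes they were covered at 4 of 23 in WT (17.4%, interval 6.98 to 37.1%) and 13 of 23 in KO (56.5%, interval 36.8 to 74.4%). The intervals over all chromosomes held the shares of all genes, 24.4% in WT and 37.5% in KO. On the 17 autosomes, a set chosen after values were seen, the WT interval held the share of all genes and the KO interval did not. Over all chromosomes Nanog, Klf4 and Zfp42, which lies on chromosome 8, were covered in both, and Tcl1 in WT only. The 10 covered in KO only were Pou5f1, which encodes Oct4, Sox2, Sall4, Klf5, Nr5a2, Tdgf1, Gdf3, Dppa3, Dppa5a and Rif1, and all of them had H3K4me3 at the start in WT and in KO. Pou5f1 lay in a 50.4 kb KO domain (chr17:35600401-35650800) that touched no WT domain and had a mean of 15.9 reads per bin, which ranked at 92.3% of the KO list from below. Sox2 lay in one of 145.8 kb (chr3:34542001-34687800) with 10.5 reads per bin, and Sall4 in one of 55.8 kb (chr2:168561001-168616800) with 11.5, both without a WT domain. By mean count the Sox2 domain ranked at 33.7% and the Sall4 domain at 68.1% of the KO list from below. Others were taken up by long KO domains. Nanog, Gdf3 and Dppa3 shared a KO domain of 1202.4 kb (chr6:122148001-123350400) with 26 whole protein-coding genes and 4 WT domains, one of which was the 19.8 kb WT domain on Nanog. Klf5 was inside the 12076.2 kb domain of chromosome 14. Rif1 went from 20.4% to 100% of its body and Nr5a2 from 6.37% to 75.4%.

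Genes for H3K9 and DNA methylation were covered at 2 of 27 in WT (7.41%) and 12 of 27 in KO (44.4%). Over all chromosomes they were covered at 3 of 30 in WT (10%, interval 3.46 to 25.6%) and 13 of 30 in KO (43.3%, interval 27.4 to 60.8%). The WT interval held the 24.4% of all genes and the KO interval the 37.5% of all genes. Over all chromosomes Smarcad1, Hells and Cbx1, which lies on chromosome 11, were covered in both. The 10 covered in KO only were Setdb1, the H3K9 methyltransferase named above, its partner Atf7ip, the HP1 genes Cbx3 and Cbx5, the demethylase Kdm4c, the repressor Morc3, the de novo methyltransferase Dnmt3b, the 5-methylcytosine oxidases Tet1 and Tet2, and Uhrf2, the paralog of Uhrf1. H3K4me3 lay at the start of 9 of these 10 in WT and in KO, all except Kdm4c. Setdb1 went from 0% to 100% of its body in a KO domain of 237.6 kb (chr3:95052601-95290200), and Dnmt3b did so in one of 147.6 kb (chr2:153457201-153604800), whose 10.1 reads per bin ranked at 11.5% of the KO list from below. Uhrf2 went from 42.7% to 79.7% and Atf7ip from 17.9% to 62.6%, so these members passed the 50% rule from a partly covered state.

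Germline genes that DNA methylation keeps silent in somatic cells were covered at 8 of 20 in WT (40%) and 10 of 20 in KO (50%), and over all chromosomes at 11 of 24 in WT (45.8%, interval 27.9 to 64.9%, against 24.4% of all genes) and 12 of 24 in KO (50%, interval 31.4 to 68.6%, against 37.5%). Over all chromosomes Sycp1, Sycp2, Syce1, Mael, Stk31, Dpep3, Tex19.1 and Rpl10l were covered in both. Tex15, Slc25a31 and Sohlh2 were covered in WT only, and Hormad1, Sycp3, Ddx4 and Asz1 in KO only. Of these, Tex15 and Dpep3 lie on chromosome 8 and Tex19.1 on chromosome 11, which stood apart. Sycp1, of the synaptonemal complex, was covered over 100% of its body by a WT domain of 178.2 kb and a KO domain of 617.4 kb. Genes of the 2-cell embryo were covered at 7 of 16 in both.

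Imprinted genes, which are expressed from 1 parental copy, were covered at 8 of 34 in WT (23.5%) and 12 of 34 in KO (35.3%), close to the 21.1% and 34.7% of all genes. Over all chromosomes they were covered at 10 of 36 in WT (27.8%) and 14 of 36 in KO (38.9%), against 24.4% and 37.5%. Sgce, Peg10 and Ppp1r9a, covered in both, lay in one KO domain of 691.2 kb (chr6:4417201-5108400). Ndn, Mkrn3 and Peg12, also covered in both, lay in another of 846.0 kb on chromosome 7 (chr7:69168601-70014600) that also took up Magel2. The domain on chromosome 7 had 9.73 reads per bin, which ranked at 0.6% of the KO list from below. Ube3a was covered in both as well, as were Grb10 and Zrsr1 on chromosome 11. Inpp5f, Slc38a4, Magel2, Nnat and Snrpn were covered in KO only, and Kcnq1, with 61.3% of its body in WT and 28.7% in KO, in WT only.

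The longest genes showed how partial coverage moved across the 50% rule. On the 17 autosomes the longest KO-only gene was Lrp1b, a lipoprotein receptor gene, with 45.1% of its body in WT and 67.3% in KO domains. The receptor gene Erbb4 went from 28.8% to 64.2%. The longest WT-only gene was the synaptic scaffold Dlg2, from 51.2% to 27.4%, and the contactin Cntn5, also long, went from 52.3% to 41.7%. Each of these was partly covered in both lists.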

How the data were processed

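ChIP-seq of H3K9me3 gave 1 library of WT and 1 of Uhrf1 KO mESC. Per the labels and the study's methods, the authors mapped reads to mm9 with Bowtie2 2.1.0, keeping 1 alignment per read, and called domains against input with RSEG, separately in each library. In the deposited lists the signal is the mean read count per 1800 bp bin, and the score grows with the number of bins in a domain. Keeping 1 alignment per read limits what can be said of repeats.

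Overlaps of at least 1 bp were computed with Python 3.11, numpy 2.4.6 and pandas 2.3.3, after tests on simulated intervals, and plots with matplotlib 3.10.9. Genes came from the GENCODE annotation of the NCBIM37 assembly, which is mm9. A gene was covered when at least 50% of its body lay in a domain, and marks at a start lay within 2 kb. Entries that share a symbol, such as Hoxa3 and Psmb9, were counted separately, and the 29 symbols listed for H3K9 and DNA methylation gave 30 entries. Coverage shares and GC content leave out N. Lists of H3K4me3, H3K27me3 and Uhrf1 windows were used for comparison only.

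Named items were, by rule, the 3 longest domains of each list without a base of the other, the 3 KO domains with the most WT domains, the longest WT-only and KO-only genes, and for each family up to 4 WT-only and 4 KO-only members with the largest difference in covered body (longer first), and all covered members of the short lists. Some of these are given by count only, and a few are not reported here. The rule also took the shared domains with the highest mean count. The members, families and lists were chosen with earlier results of these data known, and the homeobox and forkhead lists and the use of 17 autosomes after values were seen. Alternatives were joining across gaps, longer or higher-scoring domains, lists of equal number, 50% overlap, other gene rules and other sets of chromosomes.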

Additional observations from a re-analysis of the deposited data

How the results depend on the processing

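The lists hold 1 library per genotype, so a share moved when it left its counting interval, a log2 ratio when it left that interval or, for lengths, changed at the second decimal, and a count when it differed by over 1.5 times. For shares of base pairs that interval took the number of domains as the count. It served there as a limit only and does not measure the error of a share of length. No paired analysis was possible because each genotype held 1 library. The result that turned round was covered length, whose log2 ratio of KO to WT was 0.14 as deposited and -0.037 when domains were joined across gaps of up to 50 kb, an alternative chosen after seeing the data. Joined in this way, the log2 ratio was -1.20 for number and 1.53 for median length, and 25.3% of KO domains held 2 or more WT domains. With domains of at least 20 kb, the log2 ratios were -1.43 for number, 0.19 for covered length and 1.40 for median length, the overlapping shares were 68.0% of WT and 78.7% of KO domains, and 74.3% of WT base pairs lay in KO domains. With only the higher-scoring 50% of each list, covered length was 0.16, the overlapping shares were 64.4% and 82.5%, joining KO domains were 47.8%, and the shares of base pairs in the other list were 71.5% for WT and 64.2% for KO. With the WT list shortened to the number of KO domains by score, these were 88.0% and 48.7% of domains, and 15.5% for joining. When at least 50% of a domain had to be covered, they were 55.4%, 59.8% and 35.3%. Autosomes alone gave a median length ratio of 1.91. On the 17 autosomes, also chosen after seeing the data, the log2 ratios were 0.24 for covered length and 1.91 for median length, joining was 42.1%, base pairs were 74.9% for WT and 63.3% for KO, genes covered were 21.1% in WT and 34.7% in KO, KO-only sequence had 6.11 points more H3K4me3 than sequence in neither list (8.86 over all chromosomes) and 2.28 points more GC than shared sequence (2.32). Counting genes with 1 bp covered gave 34.7% in WT, 42.0% in KO and 1938 WT-only genes. The cause was not tested for these, apart from the fewer domains that length, score and number leave. Of the other alternatives for these results, 26 stayed within the limits, and for 8 named families 41 stayed and 7 moved. Depth could not be set equal between the libraries, and the share of KO-only sequence that depends on it was not tested.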

Other observations

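The shared WT domains of at least 20 kb with the highest mean count were on the X chromosome at Mid1 (chrX:166404601-166438800, 107.9 reads per bin), on chromosome 11 (chr11:3000601-3231000, 96.2 reads per bin, overlapping Drg1 and Sfi1) and on chromosome 4 (chr4:145659601-145769400, 86.0 reads per bin, overlapping Gm13247 and Gm13251). The highest mean count of both lists was that of a domain on the mitochondrial genome, at 1625 reads per bin in WT and 2019 in KO. As background, mitochondrial DNA carries no histones. This domain is not among the values for the 17 autosomes.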
